A study of Mus musculus with 4 samples.

Results

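Interferon response and antigen processing genes were followed in Py2T cells, a mouse breast cancer line established from a mammary tumour of an MMTV-PyMT transgenic mouse. Of 33 listed genes, 30 had a probe set that the array's gene table assigns to them alone, and the brightest such probe set stood for the gene, among 19938 genes in all. Isg15 and Gbp2 lie only on probe sets that list several symbols, and for Ifi44 no probe set was matched, so these 3 are not analysed here. Each of 4 Affymetrix arrays carried total RNA of 1 sample. The 2 untreated arrays are Py2T cells grown in DMEM with 10% FCS and no added cytokine, and the 2 TGFβ arrays are the same line given TGFβ at 2 ng/ml for 5 days, used in a study of epithelial to mesenchymal transition. All 4 arrays come from this 1 line. Per the labels, replicates are biological, with nothing on whether cultures were separate. The p-values therefore measure only the spread seen among these 4 arrays, which may be technical.

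Interferons are secreted when cells sense foreign RNA or DNA. Type I and III interferons act through JAK kinases on a complex that includes Stat2 and Irf9 and binds interferon-stimulated response elements (ISRE), while interferon γ acts through GAS elements and raises Irf1. The targets include antiviral enzymes, the RNA sensors themselves, the brake Usp18, and the peptide-loading machinery of MHC class I, through which epithelial cells show peptides to T cells.

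Values are RMA log2 expression values, so a difference of 1 is 2-fold. No detection calls come with them. A level of 7, a little above the median of all probe sets (6.74 to 6.76 in the 4 arrays), is used below only to mark dim genes, for which background limits the size of a difference. Of 8 mammary epithelial markers, the luminal keratins Krt8 and Krt18 were above 13 in all 4 arrays. The basal keratin Krt5 was under 7 in all of them. The basal keratin Krt14 was bright, at 10.79 and 11.49 untreated and at 10.16 and 9.36 after TGFβ. Of the 8 markers 5 fell after TGFβ, as given below. Of 11 measured leukocyte markers 8 were under 7 in all arrays, among them Ptprc, Cd3e, Adgre1 and Itgam, while Cd68, Csf1r and Cd14 were brighter.

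Upstream sequences were examined because many of these genes share a known response element. RefSeq's promoter table (build GRCm38.p6) held 24 of the 33 genes, and the 250 bases before each start site were searched on both strands. An ISRE, spelled as GAAA, any 2 bases and GAAA again, was found before 10 of the 24 (41.7%), against 3.46% of 27025 genes in the table. A GAS element, spelled TTCNNNGAA, was found before 5 of the 24 (20.8%), against 8.13% of all. In Bst2 the GAS letters overlap an ISRE. Such a match describes the letters and is not evidence of binding. The 5 windows below show how the element sits in genes whose values are given further down, with every ISRE and GAS match in capitals, 5′ to 3′ on the gene's own strand. Ifit1 (chr19:34640639-34640888, plus strand) and Ifit3 (chr19:34583279-34583528, plus strand) each hold 2 separate ISREs, read from the opposite strand. Bst2 (chr8:71537473-71537722, minus strand) and Oas1a (chr5:120907526-120907775, minus strand) each hold 2 ISREs that overlap, and a GAS match as well. The ISREs of Oas1a end 5 bases before its start site. Stat2 (chr10:128270248-128270497, plus strand) holds 1 ISRE, read from the opposite strand.
Ifit1: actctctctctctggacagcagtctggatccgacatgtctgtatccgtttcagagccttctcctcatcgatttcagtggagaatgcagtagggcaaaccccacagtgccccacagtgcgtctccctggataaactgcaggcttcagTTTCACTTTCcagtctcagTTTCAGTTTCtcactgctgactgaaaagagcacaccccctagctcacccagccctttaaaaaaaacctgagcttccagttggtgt
Ifit3: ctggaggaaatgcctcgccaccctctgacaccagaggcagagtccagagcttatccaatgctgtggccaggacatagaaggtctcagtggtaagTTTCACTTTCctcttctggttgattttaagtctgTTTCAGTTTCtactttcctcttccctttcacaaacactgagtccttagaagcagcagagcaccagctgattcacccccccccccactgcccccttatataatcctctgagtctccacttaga
Bst2: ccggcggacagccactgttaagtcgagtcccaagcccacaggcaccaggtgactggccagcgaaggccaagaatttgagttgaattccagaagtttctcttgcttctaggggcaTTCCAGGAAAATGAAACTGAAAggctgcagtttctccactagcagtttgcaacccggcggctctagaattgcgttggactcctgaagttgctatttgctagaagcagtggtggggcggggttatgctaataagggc
Oas1a: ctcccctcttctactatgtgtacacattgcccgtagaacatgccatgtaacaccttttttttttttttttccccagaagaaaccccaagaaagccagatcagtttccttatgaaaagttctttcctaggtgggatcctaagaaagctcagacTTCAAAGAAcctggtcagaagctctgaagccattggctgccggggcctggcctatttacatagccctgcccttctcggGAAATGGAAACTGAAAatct
Stat2: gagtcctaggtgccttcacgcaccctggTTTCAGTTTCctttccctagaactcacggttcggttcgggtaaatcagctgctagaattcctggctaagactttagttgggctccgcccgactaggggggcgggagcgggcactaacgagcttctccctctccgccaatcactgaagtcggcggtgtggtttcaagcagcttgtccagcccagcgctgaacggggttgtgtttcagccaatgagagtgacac

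The interferon response and antigen processing genes did not move together after TGFβ. By limma with Benjamini-Hochberg adjustment over all genes, 1 of the 30 measured genes rose (Oasl2), 3 fell (Ddx58, Tap1 and Tapbp) and 26 did not pass an adjusted p of 0.05. That is 13.3% of them, beside 13.6% of all genes tested (6.49% higher and 7.15% lower). At an unadjusted p under 0.05 there were 7, beside 26.1% of all genes. The median log2 difference over the 30 was -0.06, beside 0.0097 over all genes. The groups did not overlap for 2 genes that were higher and 11 that were lower after TGFβ, beside 27.6% and 25% of all genes (52.6% in either direction). Arrays of the same group lay further apart over these genes than over the array at large. The 2 TGFβ arrays differed by a median of 0.26 over the 30 genes, beside 0.10 over all genes, and 27 of the 30 were higher in TGFβ replicate 2. Because the genes were chosen with earlier results of these data known, this comparison is a description and no test.

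**Figure D1:**
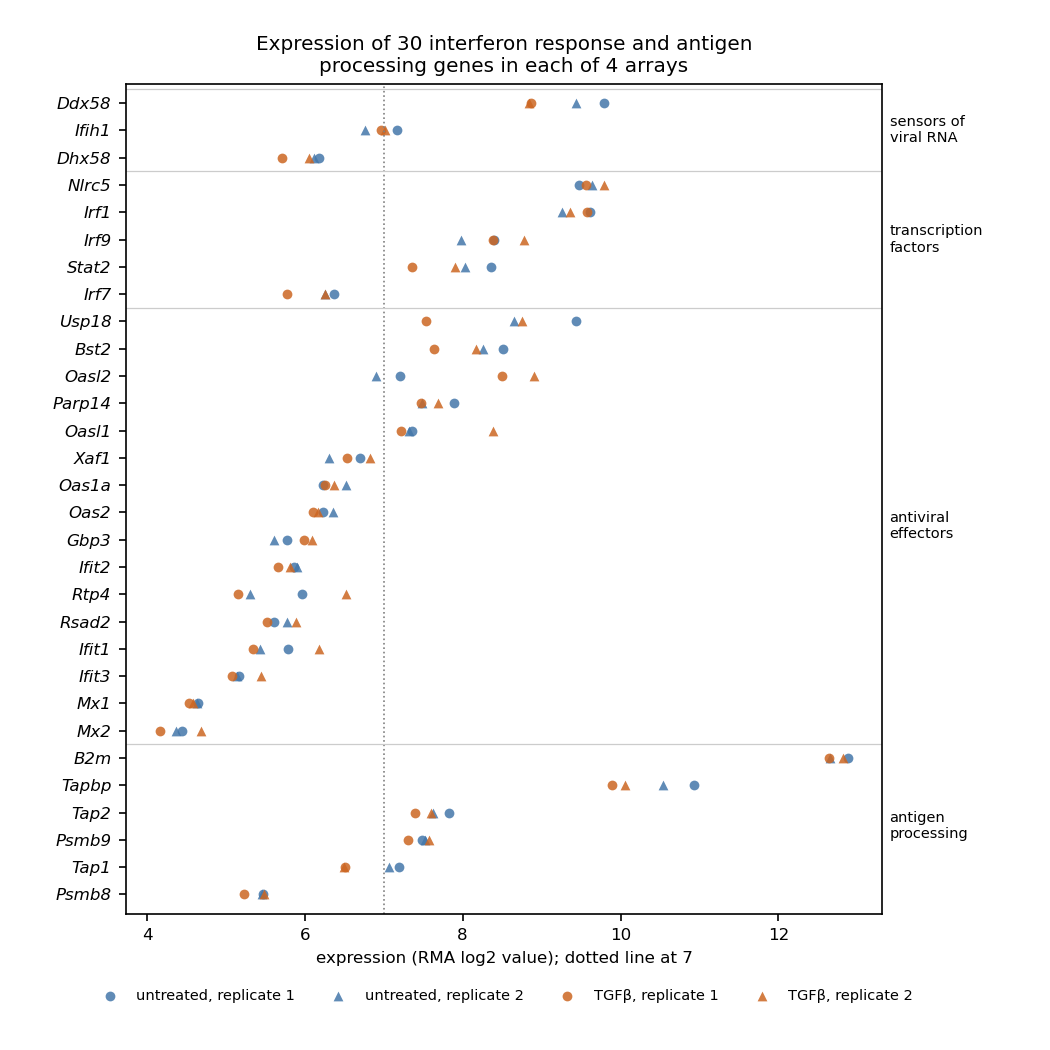
RMA log2 expression (horizontal axis) of the 30 measured genes, grouped by role and ordered by mean level, with 1 point per array: blue untreated, orange TGFβ, circles replicate 1 and triangles replicate 2. Oasl2 is the only gene in which both TGFβ arrays lie far to the right of both untreated arrays, and Rtp4, Usp18 and Oasl1 show TGFβ arrays over 2-fold apart.

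Among the cytoplasmic sensors of viral RNA, Ddx58, which encodes RIG-I, was at 9.78 and 9.44 untreated and at 8.87 and 8.85 after TGFβ. Both TGFβ arrays lay below both untreated arrays, and the gene fell 1.69-fold, a log2 difference of -0.75 ± 0.12 (SE, adjusted p = 0.015). Without TGFβ replicate 1 its adjusted p was 0.0501 (-0.77). Ifih1, which encodes MDA5, a sensor of long double-stranded RNA, was at 7.16 and 6.76 untreated and at 6.97 and 7.02 after TGFβ. Its groups overlapped, with a difference of 0.03 (95% interval -0.31 to 0.37, adjusted p = 0.942). Dhx58, whose product LGP2 tunes the other sensors, was dim in all arrays, at 6.19 and 6.12 untreated and at 5.72 and 6.05 after TGFβ (-0.27, adjusted p = 0.244). It passed without TGFβ replicate 2 (-0.44, adjusted p = 0.0487).

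None of the 5 transcription factors passed with all 4 arrays, and 1 of them had an unadjusted p under 0.05. Stat2, a subunit of the complex that binds the ISRE, was at 8.36 and 8.02 untreated and at 7.35 and 7.90 after TGFβ. Both TGFβ arrays were lower, yet they lay 0.55 apart, and the difference of -0.57 had a 95% interval of -1.06 to -0.07 (adjusted p = 0.144). The difference was -0.84 when TGFβ replicate 2 was left out (adjusted p = 0.0324) but -0.29 when replicate 1 was (adjusted p = 0.376). Irf9, its DNA-binding partner, was at 8.39 and 7.98 untreated and at 8.39 and 8.78 after TGFβ, with overlapping groups and a difference of 0.40 (95% interval -0.06 to 0.85, adjusted p = 0.253). Stat2 and Irf9 thus had differences of opposite sign, neither of which passed. Irf7, the factor that amplifies interferon production, was dim, at 6.37 and 6.25 untreated and at 5.77 and 6.25 after TGFβ. The difference of -0.30 did not pass (adjusted p = 0.338), and it was -0.54 without TGFβ replicate 2 (adjusted p = 0.0323). Irf1, the factor raised by interferon γ, was at 9.62 and 9.26 untreated and at 9.57 and 9.36 after TGFβ, a difference of 0.03 (95% interval -0.32 to 0.38). Nlrc5, the transactivator of MHC class I genes, differed by 0.11 (95% interval -0.15 to 0.38, adjusted p = 0.635). Its 19 probe sets ranged in mean level from 4.69 to 9.62 and in difference from -0.33 to 0.17, so its value depends on the probe set that stands for it.

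The oligoadenylate synthetase-like genes held the largest rise. Oasl2, an antiviral protein of that family that carries ubiquitin-like domains, was at 7.20 and 6.91 untreated and at 8.50 and 8.91 after TGFβ. Both TGFβ arrays were above both untreated arrays, and the gene rose 3.14-fold, a log2 difference of 1.65 ± 0.16 (SE, adjusted p = 0.00286). The rise lay between 1.45 and 1.85 when any 1 array was left out, and passed each time. Its paralogue Oasl1, described as a repressor of Irf7 translation, was at 7.35 and 7.32 untreated and at 7.22 and 8.38 after TGFβ. TGFβ replicate 1 thus lay at the untreated level and replicate 2 was 2.23-fold above it, and the difference of 0.46 did not pass (95% interval -0.40 to 1.32, adjusted p = 0.523). Without TGFβ replicate 1 it was 1.04 (adjusted p = 0.00474), and without replicate 2 it was -0.12 (adjusted p = 0.547). The enzymes Oas1a and Oas2, which make the activator of RNase L, were under 7 in all arrays, with differences of -0.06 and -0.15. The Oas genes lie in a cluster of close relatives, so the probes may read more than one of them.

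Usp18, the protease that removes Isg15 from proteins and blocks the type I receptor, was at 9.43 and 8.65 untreated and at 7.54 and 8.76 after TGFβ. The 2 TGFβ arrays differed 2.33-fold, the groups overlapped, and the difference of -0.89 had a 95% interval of -1.96 to 0.18 (adjusted p = 0.279). With TGFβ replicate 2 left out it was -1.50 (adjusted p = 0.0419), and with replicate 1 left out it was -0.28 (adjusted p = 0.704). Rtp4, a chaperone of G protein-coupled receptors that is also interferon-stimulated, was at 5.96 and 5.30 untreated and at 5.15 and 6.52 after TGFβ. TGFβ replicate 1 was the lowest of the 4 arrays and replicate 2 the highest, 2.58-fold apart. Its difference was 0.20 with all arrays (95% interval -0.92 to 1.32), 0.89 without TGFβ replicate 1 and -0.48 without TGFβ replicate 2, and it passed in none of these fits. Bst2, the tetherin that holds budding virus at the membrane, was at 8.51 and 8.26 untreated and at 7.64 and 8.16 after TGFβ. The groups did not overlap, but the difference of -0.48 did not pass (adjusted p = 0.172) except without TGFβ replicate 2 (-0.74, adjusted p = 0.028).

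The Ifit genes, whose products bind foreign RNA at its 5′ end or associate with those that do, were under 7 in all arrays. Ifit1 was at 5.79 and 5.43 untreated and at 5.35 and 6.19 after TGFβ, so that TGFβ replicate 2 was the highest array and replicate 1 the lowest (difference 0.16, adjusted p = 0.829). Ifit3 was at 5.17 and 5.14 untreated and at 5.08 and 5.44 after TGFβ, with the same order of the TGFβ arrays (difference 0.10, adjusted p = 0.729). Both hold the ISREs printed above. Ifit2 spanned 5.66 to 5.90 over the arrays, with a difference of -0.15 (adjusted p = 0.375). The dynamin-like GTPases Mx1 and Mx2 were the dimmest of the 30, between 4.53 and 4.64 and between 4.17 and 4.69. Rsad2, which encodes viperin, spanned 5.52 to 5.89 with a difference of 0.01. At such levels a change would be hard to detect.

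Gbp3, a guanylate-binding GTPase of the interferon γ response, was dim at 5.77 and 5.61 untreated and at 5.99 and 6.09 after TGFβ. Its groups did not overlap, and the difference of 0.35 (95% interval 0.13 to 0.57) had an adjusted p of 0.0603. Median centring brought it past the threshold (0.37, adjusted p = 0.0405), as did variances fitted robustly with an intensity trend (adjusted p = 0.034). Parp14, a mono-ADP-ribosyltransferase, differed by -0.11 (adjusted p = 0.767), from 7.90 and 7.48 untreated to 7.47 and 7.69 after TGFβ. Xaf1, an antagonist of the apoptosis inhibitor Xiap, differed by 0.18 (adjusted p = 0.611), from 6.70 and 6.30 to 6.53 and 6.83.

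**Figure D2:**
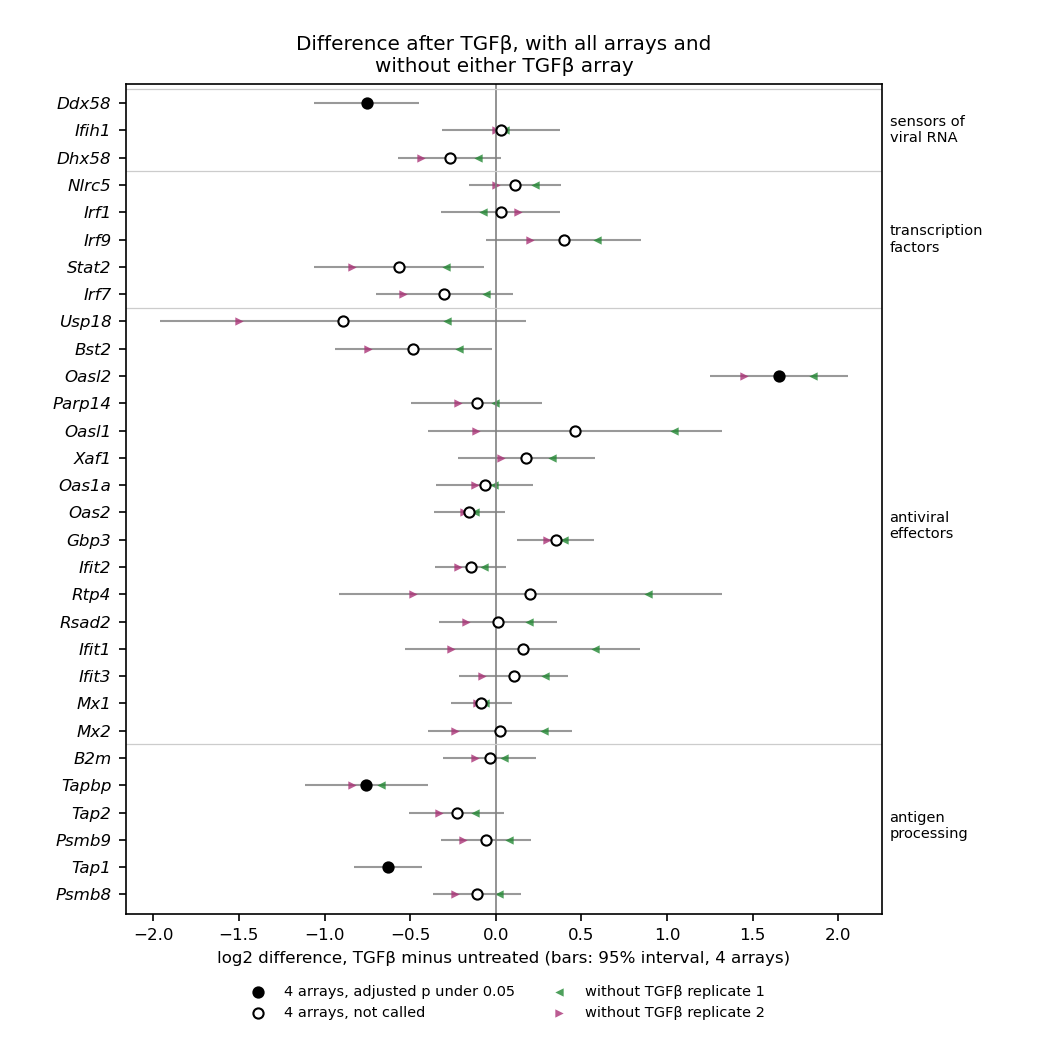
Log2 difference, TGFβ minus untreated (horizontal axis), of the 30 measured genes with 95% intervals from all 4 arrays, filled where the adjusted p is under 0.05, and the difference without TGFβ replicate 1 (green) or replicate 2 (purple), which the circle hides where all are close. Oasl2 lies far to the right at 1.65, Ddx58, Tap1 and Tapbp lie to the left at -0.75, -0.63 and -0.76, and Rtp4, Ifit1 and Oasl1 are among those that change sign with the TGFβ array left out.

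In the antigen processing group 2 of 6 genes fell, 0 rose and 4 did not pass. That is 33.3% called, beside 13.6% of all genes and 22.4% of genes with a mean of 7 or more. Over all genes 7.15% fell. At 7 or more in all arrays were 4 of the 6. Tapbp, which encodes tapasin, the bridge between the peptide transporter and MHC class I, was at 10.93 and 10.53 untreated and at 9.89 and 10.06 after TGFβ. It fell 1.69-fold (-0.76 ± 0.14 SE, adjusted p = 0.0242), with both TGFβ arrays below both untreated arrays. It no longer passed when replicate 1 of the untreated pair was omitted (-0.56, adjusted p = 0.0562), or replicate 1 of the TGFβ pair (-0.67, adjusted p = 0.0889). Tap1, a subunit of the peptide transporter, was at 7.19 and 7.07 untreated and at 6.51 and 6.50 after TGFβ. It fell 1.55-fold (-0.63 ± 0.08 SE, adjusted p = 0.00648), passed when any 1 array was left out, and had 2 TGFβ arrays that nearly coincided. Its partner Tap2 was at 7.83 and 7.62 untreated and at 7.39 and 7.60 after TGFβ, a difference of -0.23 that did not pass (95% interval -0.50 to 0.05, adjusted p = 0.287). B2m, the light chain of MHC class I and the brightest of the 30, was at 12.88 and 12.65 untreated and at 12.64 and 12.81 after TGFβ. Its difference of -0.04 had a 95% interval of -0.31 to 0.23, and bright probes of this kind can saturate.

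Tap1 shares its upstream region with Psmb9, a catalytic subunit of the immunoproteasome that is read from the other strand. In RefSeq 225 bases lie between the start sites of both genes. The 250 bases before Tap1 (chr17:34187306-34187555, plus strand, build GRCm38.p6) are printed because they hold this stretch. Neither motif matched in them, so no base is in capitals.
Tap1: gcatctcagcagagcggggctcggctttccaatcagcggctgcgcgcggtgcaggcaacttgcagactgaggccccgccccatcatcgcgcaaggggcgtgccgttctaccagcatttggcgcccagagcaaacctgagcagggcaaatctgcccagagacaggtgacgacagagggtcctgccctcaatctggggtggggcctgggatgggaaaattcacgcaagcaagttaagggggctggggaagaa

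Psmb9 was at 7.48 and 7.52 untreated and at 7.31 and 7.58 after TGFβ, with overlapping groups and a difference of -0.06 (95% interval -0.32 to 0.20, adjusted p = 0.838). The log2 difference after TGFβ was 0.57 higher for Psmb9 than for Tap1. An exact permutation test of that contrast over the 4 arrays gave a two-sided p of 0.333, the smallest that 2 against 2 arrays allow. Psmb8, the subunit encoded next to this pair, was dim at 5.47 and 5.46 untreated and at 5.23 and 5.48 after TGFβ (-0.11, adjusted p = 0.629).

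The 2 TGFβ arrays were compared gene by gene, as replicate 2 minus replicate 1. Across the 30 genes the absolute gap ran from 0.0063 (Tap1) to 1.37 (Rtp4). In 14 of the 30 it was among the widest 10% of all genes, and these were Bst2, Dhx58, Ifit1, Ifit3, Irf7, Irf9, Mx2, Oasl1, Oasl2, Rsad2, Rtp4, Stat2, Usp18 and Xaf1. TGFβ replicate 2 was the higher array in 27 of the 30, beside 49.1% of all genes, with Ddx58, Irf1 and Tap1 the exceptions. All 16 antiviral effectors were higher in TGFβ replicate 2, with a median gap of 0.37, and 10 of them were among the widest 10%. None of the 6 antigen processing genes was there, with a median gap of 0.19. The gap was not confined to dim genes: its median was 0.25 over the 14 members with a mean of 7 or more, beside 0.12 over all such genes, and 0.28 over the 16 dimmer ones, beside 0.08. These are descriptions of 4 arrays with no test.

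The untreated arrays were apart as well, in the opposite order of numbers. Untreated replicate 1 was the higher array in 24 of the 30 genes, beside 50% of all genes, with a median absolute gap of 0.22, beside 0.09 over all genes. In 14 genes this gap was among the widest 10% of all genes, and 8 genes were there in both groups, beside 2.73% of all genes. In 21 of the 30 (70%) untreated replicate 1 and TGFβ replicate 2 were the higher arrays, beside 25.7% of all genes. The mean over the 30 genes was 7.33 and 7.14 without TGFβ and 6.996 and 7.35 with it, so the higher TGFβ array stood at the level of the higher untreated one. For 20 of the 30 the TGFβ gap exceeded the difference between the group means, beside 45.8% of all genes.

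**Figure D3:**
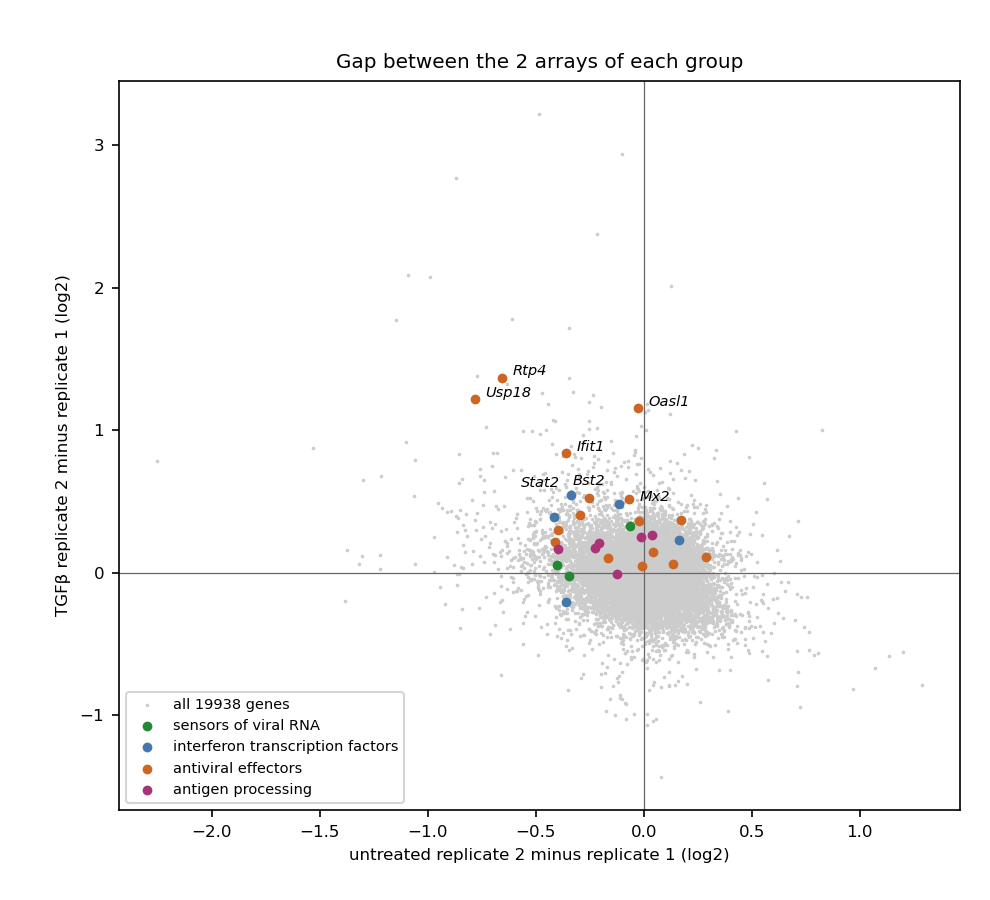
Replicate 2 minus replicate 1 on the log2 scale for the untreated pair (horizontal axis) and the TGFβ pair (vertical axis), with all 19938 genes in grey and the 30 members coloured by role. Of the 30 members 27 lie above 0 and 24 to the left of 0, with Rtp4 at 1.37, Usp18 at 1.22 and Oasl1 at 1.16 the furthest up.

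Which TGFβ array was used changed the calls. Without TGFβ replicate 2, 8 of the 30 genes were called lower (Bst2, Ddx58, Dhx58, Irf7, Stat2, Tap1, Tapbp and Usp18), 1 was called higher (Oasl2), and the median difference was -0.20, beside 5.48% of all genes called lower and 5.85% higher in the same fit. Without TGFβ replicate 1, 1 was called lower (Tap1), 2 were called higher (Oasl1 and Oasl2), and the median was 0.0073, beside 4.96% of all genes lower and 4.13% higher. The lone array is assumed in these fits to vary like the other group. With all 4 arrays, 22 of the 26 genes that were not called had a 95% interval within 2-fold in either direction. The other 4, Stat2, Oasl1, Usp18 and Rtp4, had intervals that reach 2-fold.

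Marker genes of cell state differed between the same arrays. Of 8 mammary epithelial markers 5 fell (Epcam, Cdh1, Cldn7, Krt14 and Elf3) and 3 did not pass, and their mean was 10.83 and 10.91 untreated, 9.77 in TGFβ replicate 1 and 9.97 in replicate 2. Of the 8 markers 6 were higher in TGFβ replicate 2, among them E-cadherin, Cdh1, at 9.97 and 10.66 in the TGFβ arrays. The basal keratin Krt14, which had the widest gap of the list, ran the other way, at 10.16 and 9.36. The median TGFβ gap of these 8 markers was 0.47, beside 0.26 over the 30 interferon response and antigen processing genes. Among the widest 10% of all genes were 5 of the 8, so a wide TGFβ gap was not particular to the interferon genes. The mean over the 11 measured leukocyte markers was 6.54 and 6.40 untreated and 6.32 and 6.46 after TGFβ. The widest TGFβ gap among them was that of Cd68, a lysosomal protein not limited to leukocytes, at 9.63 and 8.87 untreated and at 7.60 and 8.33 after TGFβ, while Ptprc stayed between 5.49 and 5.57. Of the 11 leukocyte markers 1 rose, the lipopolysaccharide co-receptor Cd14 (0.42, adjusted p = 0.0386), 0 fell and 10 did not pass, Cd68 among them (adjusted p = 0.0518). The part of these differences in the gap of the interferon genes was not tested.

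The rest of the pathway was read from lists of 88 measured genes outside the 30. Of these 6 rose, 10 fell and 72 did not pass, so that 18.2% were called, beside 13.6% of all genes and 22.4% of genes with a mean of 7 or more. The 7 measured interferons showed no call, and 6 of them were under 7 in all arrays. Ifnb1, the type I interferon most epithelial cells make first, was at 5.07 and 4.98 untreated and at 4.87 and 5.07 after TGFβ.

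Of 13 measured receptor and JAK-STAT genes 1 rose, 1 fell and 11 did not pass. Thus 15.4% were called, beside 13.6% of all genes and 22.4% of genes with a mean of 7 or more. The type I receptor chains Ifnar1 and Ifnar2 both differed by -0.01 (95% intervals -0.23 to 0.20 and -0.24 to 0.22). The interferon γ receptor chains Ifngr1 and Ifngr2 differed by -0.25 (adjusted p = 0.128) and 0.34 (adjusted p = 0.0695), the kinases Jak1, Jak2 and Tyk2 by 0.20, 0.28 and -0.11, and the inhibitor Socs1 by -0.03. Ifnlr1, the chain particular to the type III interferon receptor, fell by 0.66 on the log2 scale (adjusted p = 0.0231), but did not pass when replicate 1 of the untreated pair (0.0872) or of the TGFβ pair (0.0785) was omitted. Socs3, a feedback inhibitor of cytokine receptors, rose by 0.49 (adjusted p = 0.049), close to the threshold. Its adjusted p was 0.0509 after median centring, 0.0589 with the mean of its probe sets, 0.197 or 0.0512 with the first or second untreated array omitted, and 0.16 with the first TGFβ array omitted. Of the 13 genes 3 were higher in TGFβ replicate 2, and the median TGFβ gap was 0.10, near that of all genes.

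Of 8 measured nucleic acid sensing genes 0 rose, 4 fell and 4 did not pass, beside 7.15% of all genes that fell. At 7 or more in all arrays were 7 of the 8. Among all genes with a mean of 7 or more, 1273 of 10689 fell. Calls were made for 50% of the list, beside 22.4% of genes with such a mean. Tlr3, the endosomal receptor of double-stranded RNA, was at 10.14 and 9.97 untreated and at 7.68 and 7.78 after TGFβ. It fell 4.99-fold, with TGFβ arrays 0.10 apart (-2.32 ± 0.09 SE, adjusted p = 0.000255), the largest difference among the members and pathway genes. The kinase Ikbke, which phosphorylates Irf3 and Irf7, fell by 1.14 (adjusted p = 0.0174), Mavs, the mitochondrial adaptor of RIG-I and MDA5, by 0.49 (adjusted p = 0.00991), and the kinase Tbk1 by 0.34 (adjusted p = 0.0362). Omitting untreated replicate 1 ended the calls of Ikbke (adjusted p = 0.0571) and Mavs (0.0589). Tbk1 lost its call whichever array was omitted (0.0788 to 0.154), after median centring (0.0609) and with the intensity trend (0.0714).

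Of 41 other interferon-stimulated genes measured 2 rose, 4 fell and 35 did not pass. Thus 14.6% were called, beside 13.6% of all genes and 22.4% of genes with a mean of 7 or more. Irgm1, a GTPase of cell-autonomous immunity, rose 2.07-fold (adjusted p = 0.0176), though not with TGFβ replicate 1 omitted (0.97, adjusted p = 0.0678), and Shisa5, a membrane protein of the endoplasmic reticulum, rose by 0.47 (adjusted p = 0.0266). The ubiquitin ligase Rnf213 fell by 0.56 (adjusted p = 0.00872), the membrane protein Ifitm3, which hinders virus entry, by 0.46 (adjusted p = 0.0202), the nuclear body protein Pml by 0.40 (adjusted p = 0.0228) and the dim GTPase Gbp4 by 0.32 (adjusted p = 0.0464). Of these, Rnf213 alone passed whichever array was omitted. Pml and Gbp4 lost their calls whichever array was omitted (adjusted p 0.0521 to 0.12 and 0.0714 to 0.209), and Gbp4 also after median centring (0.0544). Ifitm3 lost its call when the first array of either pair was omitted (0.107 untreated, 0.0755 TGFβ). Shisa5 lost its call when untreated replicate 2 (0.112) or either TGFβ array (0.0831 and 0.0756) was omitted.

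The chemokines of this list, named after their values were seen, had the largest gaps. Ccl5 was at 9.18 and 8.30 untreated and at 7.26 and 10.03 after TGFβ, and Cxcl10 at 6.83 and 6.96 untreated and at 6.64 and 8.65 after TGFβ. For both, TGFβ replicate 1 was the lowest of the 4 arrays and replicate 2 the highest. Over the whole list the median TGFβ gap was 0.11, close to the 0.10 of all genes, with 8 of 41 among the widest 10% and 29 of 41 higher in TGFβ replicate 2.

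**Figure D4:**
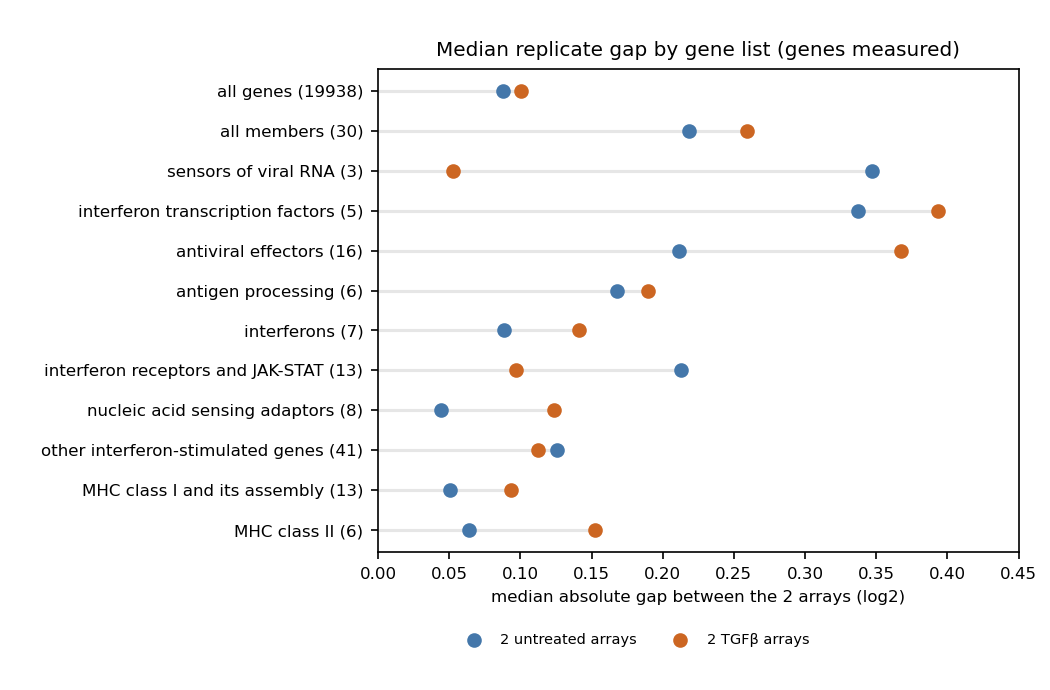
Median absolute gap between the 2 arrays of a group (horizontal axis, log2) for all genes, the 30 members, their 4 role groups and the 6 pathway lists, with the number of genes measured in brackets, blue for untreated and orange for TGFβ arrays. The transcription factors and antiviral effectors have TGFβ medians of 0.39 and 0.37, beside 0.10 for all genes. Marker lists are not drawn, and the mammary epithelial markers had a TGFβ median of 0.47.

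The remaining MHC genes went both ways. Of 13 measured genes of MHC class I and its assembly 1 rose, 1 fell and 11 did not pass. The share called was 15.4%, beside 13.6% of all genes and 22.4% of genes with a mean of 7 or more. Psmb10, the third catalytic subunit of the immunoproteasome beside Psmb8 and Psmb9, was at 7.93 and 7.88 untreated and at 9.23 and 8.79 after TGFβ, and rose 2.15-fold (adjusted p = 0.00785). Here TGFβ replicate 1 was the higher array. The class I gene H2-Q4 was at 8.49 and 8.33 untreated and at 7.10 and 7.26 after TGFβ, and fell 2.34-fold (adjusted p = 0.0014). The class I genes are close in sequence, so its probes may read relatives. For the classical H2-K1 and H2-D1 no probe set was assigned to the gene alone, so they are not analysed here. All 6 measured class II genes were under 7 in all arrays, and 2 of them rose, H2-Ab1 by 0.69 (adjusted p = 0.00908) and H2-DMa by 0.38 (adjusted p = 0.0412). The share called was 33.3%, beside 13.6% of all genes and 3.49% of genes with a mean under 7. H2-DMa did not pass with cyclic loess (adjusted p = 0.0689), nor when either untreated array (0.119 and 0.177) or TGFβ replicate 1 (0.14) was omitted. Ciita, the class II transactivator, differed by -0.06.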

How the data were processed

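Total RNA of untreated and TGFβ-treated Py2T cells was measured on Affymetrix arrays, 2 per group. The authors deposited log2 values made with RMA in oligo, per the submitters' processing notes, which name no version. RMA as usually run gives all arrays a common distribution, which hides a shift of the whole array. For probe-set annotation and build, the sources used here name none.

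Of 35556 probe sets, 21789 carry 1 symbol, and the brightest stood for each of 19938 genes. Groups were taken from the sample titles and compared with limma 3.58.1 in R 4.3.3 (empirical Bayes, 2 residual and 3.77 prior degrees of freedom, two-sided), with Benjamini-Hochberg adjustment over all genes and calls at 0.05. No value was filtered or normalized further. The procedure was tested on simulated data with independent normal noise for each gene and array. Such data hold no deviation shared across genes, so the simulation does not cover the replicate gaps described above. The members and lists were chosen with earlier results of these data known. Named genes are every member, fixed pathway genes, and up to 4 called rises and 4 falls per list, with others marked as named after their values were seen. Leukocyte, epithelial and fibroblast marker lists were read (fibroblast markers: 2 of 7 rose, Pdgfrb and Col1a1, and 0 fell). Alternatives were median centring, cyclic loess, leaving out the dimmest 25% of genes, the mean of a gene's probe sets, the replicate block, robust variances with an intensity trend, and leaving out each array. The number of arrays limits the precision.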

Additional observations from a re-analysis of the deposited data

How the results depend on the processing

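With any 1 array left out, the members called higher numbered 1 to 2 and those called lower 1 to 8, and their median difference ran from -0.20 to 0.0073. The same fits called 740 to 1167 genes higher and 751 to 1093 lower over the whole array, and 3 to 5 and 3 to 9 of the pathway genes. Gbp3 made 2 members higher after median centring, and again with an intensity trend and robust variances. The labels do not say whether arrays with the same replicate number belong together, and 4 arrays cannot settle it. Deviations of same-numbered arrays correlated at -0.21 over all genes and at -0.35 over genes with a mean of 7 or more. The main fit did not use the numbers as pairs. With the replicate number as a block 785 genes were higher and 839 lower, with 3 and 5 of the pathway genes, and Tapbp was not called (adjusted p = 0.0711) while Ddx58, Tap1 and Oasl2 were. A crossed pairing as a block, chosen after seeing the data, called 3 members higher and 6 lower, with 1683 genes higher and 1957 lower over the whole array. Whether the numbers of a group are crossed is not known. The median TGFβ gap of the members stayed between 0.23 and 0.26 under median centring, cyclic loess, without the dimmest 25% of genes (26 members left) and with the mean of a gene's probe sets. Those settings left 11 to 14 members among the widest 10% of genes, and 25 of 30 were higher in TGFβ replicate 2 after median centring. No called difference of a named gene changed sign under these alternatives. Causes of these shifts were not tested. Dim members limit what could be detected: 14 of 30 were under 7 in all arrays.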

Other observations

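Rtp4, Usp18 and Oasl1 ranked 14, 20 and 26 by the TGFβ gap among 19938 genes. The genes ahead of them that are named here were picked after their values were seen. Lilr4b, an immunoglobulin-like receptor, led at 7.04 and 10.25 in the TGFβ arrays. Calcb, a calcitonin gene-related peptide, followed at 6.81 and 9.75. Ccl5 and Cxcl10 ranked 3 and 7. The collagenase Mmp13 ranked 6, at 10.32 and 12.39, and Vtcn1, a B7 family ligand that restrains T cells, ranked 9, at 6.35 and 8.13. In all of these TGFβ replicate 2 was the higher array. The first gene in the opposite order was Mcam, an adhesion molecule, which ranked 11, at 10.07 and 8.64.

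Among the 21 measured members with a promoter in the RefSeq table, 5 of 8 with an ISRE and 5 of 13 without one were among the widest 10% of TGFβ gaps, with median gaps of 0.37 and 0.25. None of the 8 with an ISRE was called after TGFβ, and 4 of the 13 without one were, beside 13.6% of all genes. These counts are a description with no test.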
